A study of Mus musculus with 12 samples.

Results

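The enzymes described here carry out the mevalonate pathway up to farnesyl diphosphate: Hmgcs1, Mvk, Mvd, Idi1 and Fdps. They were chosen by gene symbol, as all probe sets of the array whose only annotated gene is one of these 5, which gave 13 probe sets among 34945 with a single symbol, and 5 genes among 18193. The RNA came from CD8 T cells enriched from the spleens of male mice and was profiled on Affymetrix arrays, 3 per group. WT mice were littermates of genotype Cd4-Cre/Scap+/+, and KO mice were Cd4-Cre/Scapfl/fl, so both genotypes carried the Cre recombinase, driven by the Cd4 promoter and therefore active in developing T cells of the CD4 and CD8 lineages. The T0 samples were quiescent cells, and the T6 samples had spent 6 h on plate-bound antibody to CD3 with soluble antibody to CD28. Each genotype had 3 mice, which gave cells for both times, and whether equal replicate numbers mark one mouse is not given in the sources used here, nor are the ages.

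The mevalonate pathway turns acetyl-CoA units into isoprenoids. HMG-CoA synthase (Hmgcs1) makes HMG-CoA, mevalonate kinase (Mvk) phosphorylates mevalonate, mevalonate diphosphate decarboxylase (Mvd) makes isopentenyl diphosphate, its isomerase (Idi1) makes dimethylallyl diphosphate, and farnesyl diphosphate synthase (Fdps) joins these units. Farnesyl diphosphate feeds cholesterol, ubiquinone, dolichol and protein prenylation. SCAP escorts the SREBP transcription factors from the ER to the Golgi when sterols are low, and SREBP2 is known for driving genes of this pathway, which growing T cells use to build membrane.

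In control cells activation raised Hmgcs1, Idi1 and Fdps, by 2.11-fold, 3.66-fold and 2.37-fold, lowered Mvd by 1.59-fold, and gave no call for Mvk. In KO cells the same 3 genes rose and Mvd fell, with rises of 1.42-fold, 1.76-fold and 1.84-fold. After 6 h, Idi1 was 2.69-fold and Hmgcs1 1.89-fold lower in KO than in WT cells, while Fdps, Mvd and Mvk did not pass the test. Both T6 differences kept their direction in all 26 alternative analyses, but Idi1 was called in 7 of them and Hmgcs1 in 13. Across these the log2 difference ran from -1.71 to -1.23 for Idi1 and from -1.01 to -0.84 for Hmgcs1. Neither was called with a covariate for B cell and myeloid markers or for RNA quality, which at T6 differed between the genotypes. With either covariate both log2 differences stayed within these ranges. Folds are those of log2(signal + 16), which understates changes of dim probe sets. The call rule was an adjusted p under 0.05 in limma (Benjamini-Hochberg over 13158 genes).

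Since Hmgcs1 and Idi1 were lower in KO cells after activation and Mvd moved the other way on activation, the bases before their start sites are shown for reference. The windows come from RefSeq on build GRCm38.p6, which held one for 4 of the 5 genes (Hmgcs1, Idi1, Mvd and Mvk). Each is the 250 bases before the annotated start site on the coding strand, and capitals mark the sterol element core CACCCCAC, its looser form CACNCCAC and the NF-Y box CCAAT on either strand (ATTGG when on the other strand). The core is contained in the looser form, and no other searched motif was capitalised. Hmgcs1 lies on the plus strand at chr13:119690101-119690350, Idi1 on the plus strand at chr13:8885356-8885605 and Mvd on the minus strand at chr8:122443423-122443672.
Hmgcs1: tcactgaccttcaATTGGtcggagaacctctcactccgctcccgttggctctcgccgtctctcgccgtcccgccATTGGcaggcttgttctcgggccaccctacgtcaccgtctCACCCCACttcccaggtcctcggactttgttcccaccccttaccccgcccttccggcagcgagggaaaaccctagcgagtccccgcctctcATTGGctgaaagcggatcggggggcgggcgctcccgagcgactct
Idi1: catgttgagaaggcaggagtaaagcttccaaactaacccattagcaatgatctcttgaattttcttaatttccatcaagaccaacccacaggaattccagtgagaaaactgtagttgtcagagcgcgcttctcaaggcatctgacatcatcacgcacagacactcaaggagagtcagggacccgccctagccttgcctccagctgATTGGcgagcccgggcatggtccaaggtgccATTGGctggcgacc
Mvd: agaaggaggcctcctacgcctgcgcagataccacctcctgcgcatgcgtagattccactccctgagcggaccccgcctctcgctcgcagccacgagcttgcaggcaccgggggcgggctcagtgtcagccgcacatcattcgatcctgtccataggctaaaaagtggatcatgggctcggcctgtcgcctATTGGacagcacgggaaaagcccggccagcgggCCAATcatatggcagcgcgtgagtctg

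The Hmgcs1 window held 1 sterol element core, at positions -136 to -129 from the start site, together with 3 NF-Y boxes and 2 GC boxes (GGGCGG). Idi1 held 2 NF-Y boxes and 1 GC box, Mvd held 2 NF-Y boxes and 1 GC box, and the Mvk window, on the plus strand of chromosome 5, held 5 NF-Y boxes and 2 GC boxes. None of the 4 windows held the E-box CACGTG. Of all 32851 promoter windows of this length, 2.58% held the core, 5.29% the looser form, 6.02% the E-box, 33.85% an NF-Y box and 32.74% a GC box. At least 3 NF-Y boxes stood in 2.79%. These matches describe letters in the windows and were not tested for binding.

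Arrays of one group correlated at 0.9693 to 0.9783 over all probe sets on the log2 scale, and arrays of different groups at 0.9487 to 0.9766. Cd8a was above the filter level (percentile 40 of the array) on all 12 arrays and Cd4 on 0 of 12. For the targeted gene, Scap, the log2 signal at T0 was 11.26 ± 0.25 for WT against 11.01 ± 0.23 for KO, and at T6 it was 11.57 ± 0.02 against 11.10 ± 0.04 (SD, n = 3). Its log2 difference was -0.25 at T0 (limma adjusted p = 0.593) and -0.47 at T6 (adjusted p = 0.273), and where its probe set lies relative to the floxed part was not analysed here. Arrays were of whole preparations, in which fewer cells of a type and less RNA per cell cannot be told apart. Markers of other cells moved with genotype: all 9 tested B cell markers and all 10 tested myeloid markers had positive KO minus WT differences at both times. The summed signal of the B cell markers was 1753 to 4872 in WT T6 and 6388 to 12650.3 in KO T6, and that of the myeloid markers 986 to 2396 and 2424 to 4092. For 4 erythroid markers, with Hba-a1 below the filter level throughout, it was 589 to 894 in WT T6 and 1345 to 19975 in KO T6. The CD8 T cell markers summed to 67409 to 76536 in WT T6 and 47616 to 59954 in KO T6. The 3 CD4 T cell and 3 NK cell markers present on the array summed to at most 138 and 418 on any array.

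The first comparison, T6 against T0 in WT, gives the response of control cells to activation. Hmgcs1, at the entry to the pathway, had signals of 2506, 2396 and 2263 on the T0 arrays and 5155, 4596 and 5408 on the T6 arrays. All T6 arrays lay above all T0 arrays, and the log2 change was 1.07 (SE 0.12, limma adjusted p = 1.45e-04). Idi1 stood at 865, 793 and 901 at T0 and at 3252, 3048 and 3185 at T6. Its groups were also apart, with a log2 change of 1.87 (SE 0.21, adjusted p = 2.0e-04) and the largest rise of the 5 genes. Fdps stood at 649, 506 and 661 at T0 and at 1475, 1476 and 1386 at T6, again without overlap, and rose by 1.24 on the log2 scale (SE 0.19, adjusted p = 0.0011). With the probe sets of a gene averaged, which for Fdps adds a probe set below the filter level on every array, its change was 0.59 (adjusted p = 0.044).

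**Figure D1:**
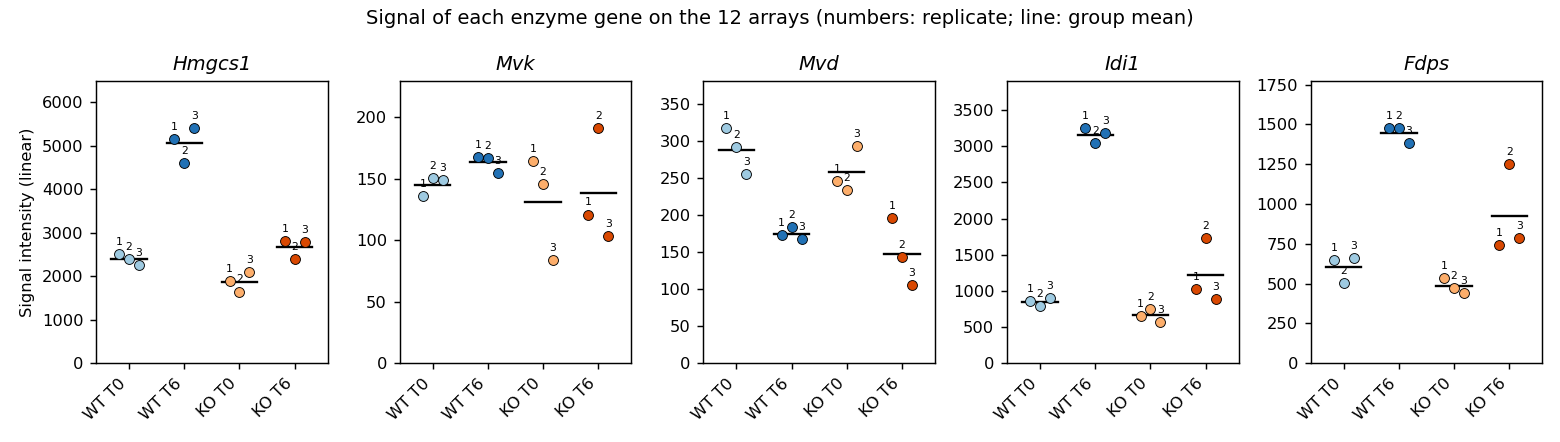
Linear signal intensity (vertical axes, one scale per gene) of the brightest probe set of each enzyme gene on the 12 arrays, grouped as WT T0, WT T6, KO T0 and KO T6; points are single arrays with their replicate number and lines are group means. Hmgcs1, Idi1 and Fdps are highest in WT T6, Mvd is lower at T6 than at T0 in both genotypes, and KO T6 replicate 2 is the highest KO T6 array for Mvk, Idi1 and Fdps and the lowest for Hmgcs1.

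Mvd moved the other way. Its signals were 317, 291 and 256 at T0 and 173, 183 and 167 at T6, with every T6 array below every T0 array. It fell by 0.67 on the log2 scale (SE 0.18, adjusted p = 0.022). Leaving out an array ended this call for WT T0 replicate 1 (adjusted p = 0.073), WT T0 replicate 2 (0.061), WT T6 replicate 1 (0.060) or WT T6 replicate 3 (0.064). The myeloid markers fell in the same contrast, in summed signal from between 14282 and 19136 at T0 to between 986 and 2396 at T6. With the array mean of B cell and myeloid markers as a covariate the Mvd difference was -0.09 (adjusted p = 0.943), with the RNA quality measure described further on it was -0.46 (0.267), and with arrays centred on their median it was -0.56 (0.050). The median of all genes moved from -0.06 to 0.05 under that centring. With the marker covariate, Hmgcs1, Idi1 and Fdps stood at 1.22, 1.93 and 1.46, also without a call, with adjusted p between 0.081 and 0.182. Mvk, the kinase ahead of Mvd, had signals of 136, 150.4 and 149 at T0 and 168, 167 and 155.0 at T6. These groups did not overlap either, yet the change of 0.16 was not called (SE 0.24, 95% confidence interval -0.37 to 0.68, adjusted p = 0.687). Thus 3 of 5 genes were called higher and 1 lower, where 11.3% and 13.8% of all genes tested were. The arrays stood apart for 4 genes upward and 1 downward, against 19.2% and 23.6%.

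T6 against T0 in KO asks how far activation moved the same genes in mice carrying the floxed Scap alleles. Hmgcs1 went from 1897, 1649 and 2087 to 2817, 2403 and 2786, with all T6 arrays above all T0 arrays. The log2 change was 0.51 (SE 0.12, limma adjusted p = 0.011). Idi1 went from 657, 756 and 572 to 1032, 1732 and 887, also without overlap. It rose by 0.81 (SE 0.21, adjusted p = 0.021), and the call was lost without KO T0 replicate 1 (adjusted p = 0.057) or KO T0 replicate 3 (0.075). The change was 0.53 (0.019) when KO T6 replicate 2 was left out. The T6 arrays were uneven for Idi1, replicate 2 standing far above the others. Fdps went from 533, 474 and 442 to 740.1, 1250.2 and 783, and rose by 0.88 (SE 0.19, adjusted p = 0.0083). Here too KO T6 replicate 2 was the highest array, though all T6 arrays exceeded all T0 arrays.

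Mvd fell again in KO cells, from 246, 234 and 293 to 195, 143 and 105. The groups did not overlap and the change was -0.77 (SE 0.18, limma adjusted p = 0.013), with the call lost without KO T0 replicate 3 (adjusted p = 0.053). With the same marker covariate it was -0.25 (adjusted p = 0.784), and the summed myeloid marker signal was between 20519.7 and 26199 at T0 and between 2424 and 4092 at T6. Mvk stood at 164, 146 and 84.0 at T0 and at 121, 191 and 103 at T6, overlapping sets with a change of 0.07 (95% confidence interval -0.45 to 0.60, adjusted p = 0.871). As in WT, 3 genes were called higher and 1 lower, against 10.4% of all genes tested in each direction, and the arrays stood apart for 3 upward and 1 downward, against 18.9% and 17.6%. With the marker covariate Hmgcs1, Idi1 and Fdps stood at 0.63, 0.86 and 1.07 and none was called (adjusted p 0.255 to 0.418), nor with the RNA quality covariate, at 0.44, 1.04 and 0.85 (0.255 to 0.401). With probe sets averaged per gene Hmgcs1 stood at 0.28 (0.111) and Fdps at 0.29 (0.329). In a separate fit of the KO arrays alone adjusted p was 0.058 for Hmgcs1, 0.101 for Idi1 and 0.072 for Mvd. With the RNA quality covariate Mvd stood at -0.40 (0.646).

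**Figure D2:**
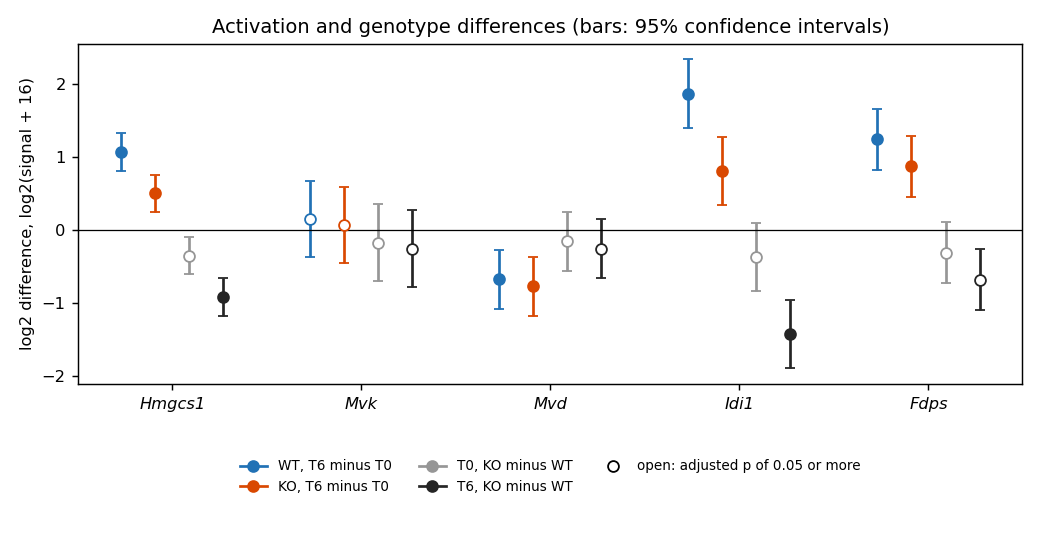
Log2 difference of log2(signal + 16) (vertical axis) for the 5 enzyme genes in 4 comparisons: T6 minus T0 in WT and in KO, and KO minus WT at T0 and at T6; bars are 95% confidence intervals of the limma fit over 12 arrays, and open symbols mark an adjusted p of 0.05 or more. The activation rises of Hmgcs1, Idi1 and Fdps stand at 1.07, 1.87 and 1.24 in WT and at 0.51, 0.81 and 0.88 in KO.

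Quiescent KO and WT cells were compared to see whether the genes differed before activation. All 5 differences were negative, from -0.37 to -0.15 with a median of -0.31, where 50% of all genes tested were negative. None of the 5 was called by limma, against 0.038% of all genes called lower, and 1 had an unadjusted p under 0.05, as did 9.77% of all genes. That gene was Hmgcs1, at 79.4%, 69.0% and 87.4% of the WT T0 mean on the 3 KO arrays and below every WT array. Its log2 difference was -0.35 (SE 0.12, 95% confidence interval -0.61 to -0.09, adjusted p = 0.426). Idi1 also lay below every WT array, at 77.0%, 88.6% and 67.1% of the WT mean (log2 difference -0.37, interval -0.83 to 0.10, adjusted p = 0.595). Non-overlap of this kind, KO below WT, was seen for 2 of the 5 genes and for 8.51% of all genes tested. Fdps stood at -0.31 (interval -0.73 to 0.11), Mvk at -0.17 (-0.70 to 0.35) and Mvd at -0.15 (-0.56 to 0.25), each with overlapping groups.

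At T6 the same comparison asks how the genotypes differed once cells were activated. Idi1 was at 32.6%, 54.8% and 28.1% of the WT T6 mean on the 3 KO arrays. Every KO array lay below the lowest WT array, and the highest of them, replicate 2, was 1732 against a lowest WT signal of 3048. Idi1 was lower by a log2 difference of -1.43 (SE 0.21, 95% confidence interval -1.89 to -0.96, limma adjusted p = 0.048). Hmgcs1 was at 55.8%, 47.6% and 55.1% of the WT mean, close to each other and below every WT array, with a log2 difference of -0.92 (SE 0.12, interval -1.17 to -0.66, adjusted p = 0.026). Fdps was at 51.2%, 86.5% and 54.2% and below every WT array, but its difference of -0.68 was not called (SE 0.19, interval -1.09 to -0.26, adjusted p = 0.226). Mvd stood at 112%, 82.0% and 60.1% and Mvk at 74.1%, 117% and 63.3% of the WT mean, so both sets overlapped the WT arrays. Their differences were -0.26 (interval -0.66 to 0.15) for Mvd and -0.25 (-0.78 to 0.27) for Mvk. All 5 differences were negative, against 42.9% of all genes tested. Of the 5 genes, 2 were called lower, against 0.0684%, 3 had an unadjusted p under 0.05, against 11.8%, and 3 had KO arrays wholly below WT, against 8.01%.

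With each of the 12 arrays left out in turn, Idi1 ranged from -1.71 to -1.23 and Hmgcs1 from -0.98 to -0.84. Idi1 stayed called without KO T6 replicate 2 (-1.71, adjusted p = 0.0044) and lost its call without any 1 of the other 11 arrays (adjusted p 0.073 to 0.199). The Hmgcs1 call was lost without WT T0 replicate 2 (adjusted p = 0.063), any WT T6 replicate (0.054, 0.057 and 0.108), KO T0 replicate 1 (0.057) or any KO T6 replicate (0.091, 0.075 and 0.101). Adjusted p for Hmgcs1 and Idi1 was 0.062 and 0.083 without the filter, 0.057 and 0.057 with probe sets averaged per gene, and 0.194 and 0.335 in a fit of the T6 arrays alone. Idi1 alone also lost its call with signals floored at 1 (0.073), with signals quantile normalized (0.054) or with a block for the replicate number. Without KO T6 replicate 2 the Fdps difference was -0.91 (adjusted p = 0.076). That array had the highest erythroid marker sum of its group, 19975 against 5531 and 1345, and the lowest CD8 T cell marker sum, 47616 against 59954 and 58447. With B cell and myeloid markers as a covariate Idi1 stood at -1.45 (adjusted p = 0.572) and Hmgcs1 at -0.99 (0.331), and with the Actb 3' minus 5' difference they stood at -1.29 (0.496) and -0.96 (0.242). That measure of RNA quality lay between 0.45 and 0.54 in WT T6 and between 0.62 and 0.79 in KO T6, without overlap. The part of either in these differences was not tested beyond these fits.

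**Figure D3:**
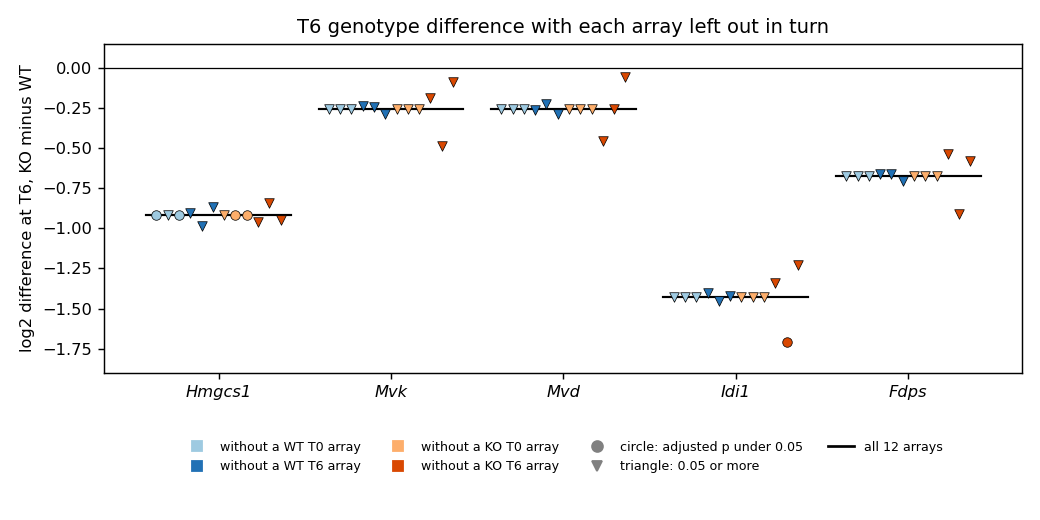
KO minus WT log2 difference at T6 (vertical axis) for each enzyme gene with each of the 12 arrays left out in turn; colours give the group of the missing array, circles an adjusted p under 0.05 and triangles 0.05 or more, and black lines the value with all 12 arrays. All values of the 5 genes lie below 0, and leaving out KO T6 replicate 2 takes Idi1 from -1.43 to -1.71 and Fdps from -0.68 to -0.91.

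The genotype difference averaged over T0 and T6 uses all 12 arrays and shares them with the comparisons above. The mice of each genotype gave cells for both times, and the fit counted their arrays as independent. Where arrays of one mouse deviate together, the standard errors and p-values given here are too small. Hmgcs1 stood at -0.63 (SE 0.08, 95% confidence interval -0.81 to -0.45, limma adjusted p = 0.010) and was called without each single array (adjusted p at most 0.041). Idi1 stood at -0.90 (SE 0.15, interval -1.23 to -0.56, adjusted p = 0.034), and its call was kept without KO T6 replicate 2 (-1.04, adjusted p = 0.0021) and lost without any 1 of the other 11 arrays (0.054 to 0.101) or without the filter (0.059). Fdps stood at -0.49 (SE 0.13, adjusted p = 0.120) and was called without KO T6 replicate 2 (-0.61, adjusted p = 0.025). Mvd and Mvk stood at -0.20 and -0.21, with intervals from -0.49 to 0.08 and from -0.58 to 0.16. So 2 of the 5 were called lower, where 0.236% of all genes tested were. With the marker covariate neither was called, at -0.70 for Hmgcs1 (adjusted p = 0.354) and -0.92 for Idi1 (0.517), nor with the RNA quality covariate, at -0.66 (0.123) and -0.81 (0.259).

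Whether activation raised the genes less in KO than in WT was tested as the difference of the 2 activation changes. All 5 values were negative, where 43.2% of all genes tested were. Idi1 stood at -1.06 (SE 0.30, interval -1.72 to -0.40, unadjusted p = 0.0051) and Hmgcs1 at -0.57 (SE 0.16, interval -0.93 to -0.21, unadjusted p = 0.0058). Neither passed limma's adjusted threshold (adjusted p = 0.9997 for each), and 0% of genes were called in this test, with 4.59% at an unadjusted p under 0.05. Fdps stood at -0.37 (interval -0.96 to 0.23), Mvd at -0.10 (-0.67 to 0.47) and Mvk at -0.08 (-0.83 to 0.66). A smaller rise in KO cells was thus not shown for any of the 5 genes at this number of arrays. Where arrays of one mouse deviate together, the standard errors of this difference and of the 2 activation changes are too large rather than too small. The arrays could not be paired by mouse, so the extent of this was not tested.

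The probe sets of a gene read different parts of its transcripts, and each that passed the filter was also tested on its own among 24543 probe sets. Of the 13, 12 passed, and the other, the Fdps probe set 1438150_at, was above the filter level on 0 arrays. At T6, 12 of 12 had a negative KO minus WT difference, against 48% of all probe sets. Of the 12, 3 were called lower, against 0.399%, and in 8 every KO array lay below every WT array, against 10.5%. These counts, and those on activation below, take several probe sets from one gene on the same arrays, so they are not of independent readings. Hmgcs1 had 5 probe sets, with differences of -1.04 (1433443_a_at, adjusted p = 0.029), -0.97 (1433444_at, 0.080), -0.92 (1433445_x_at, 0.016), -0.77 (1433446_at, 0.088) and -0.73 (1441536_at, 0.080). The probe set that stands for Hmgcs1 above, 1433445_x_at, carries the suffix for probes that can bind unrelated transcripts, and 1433443_a_at, which does not, was also called. Idi1 stood at -1.43 on 1451122_at (adjusted p = 0.026) and at -1.10 on 1423804_a_at (adjusted p = 0.055). The second Idi1 probe set had signals of 1033, 915 and 937 in WT T6 and 430.2, 531 and 368 in KO T6, again highest on KO replicate 2.

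**Figure D4:**
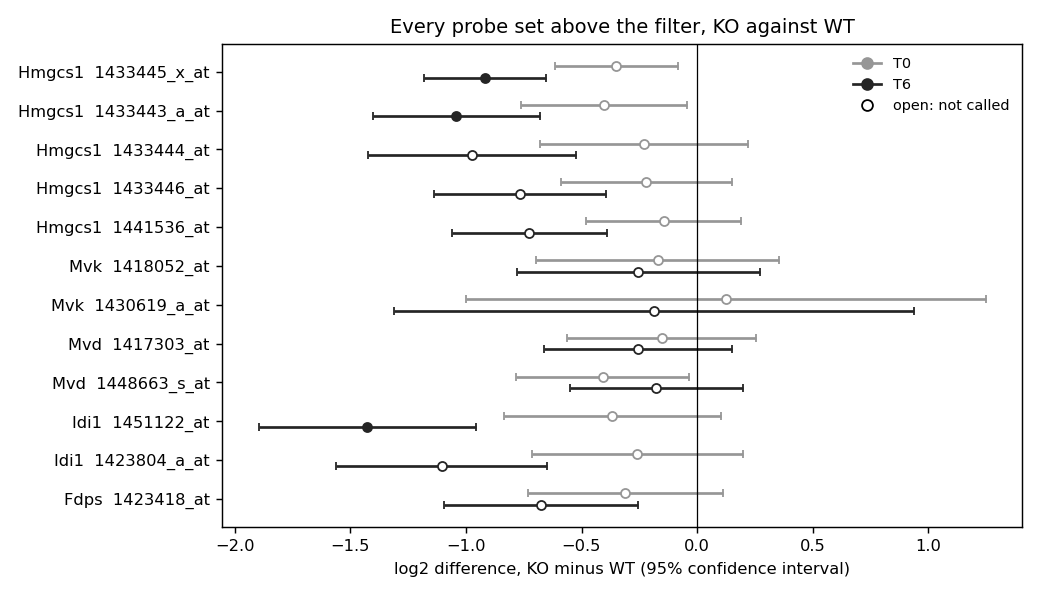
KO minus WT log2 difference (horizontal axis, with 95% confidence intervals) at T0 (grey) and T6 (black) of the 12 probe sets above the filter, by gene; filled symbols were called among all probe sets. All 5 Hmgcs1 and both Idi1 probe sets lie between -1.43 and -0.73 at T6, and those of Mvk and Mvd between -0.26 and -0.18.

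On activation, the 12 probe sets gave 7 higher and 2 lower calls in WT, against 9.84% and 12.2% of all probe sets, and 5 higher and 2 lower in KO, against 8.79% and 10.8%. In WT, 4 of 5 Hmgcs1 probe sets rose, by 0.81 to 1.19, while the dim 1441536_at, with signals of 79.0, 114 and 117 at T0 and 112, 127 and 134 at T6, stood at 0.24 (limma adjusted p = 0.290). In KO that probe set stood at -0.34 (adjusted p = 0.155), and 2 of the 5 rose, 1433443_a_at by 0.54 and 1433445_x_at by 0.51. Both Mvd probe sets fell in both genotypes, by 0.67 and 0.79 in WT and by 0.77 and 0.56 in KO. The second Mvk probe set, 1430619_a_at, ranged from 13.8 to 128 among the WT T0 arrays alone, so its intervals were wide and nothing was called.

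The rest of the pathway around these enzymes was read from fixed lists of genes. Before farnesyl diphosphate, 2 other genes of a list of 7 were tested, Pmvk, which follows Mvk, and Acat1, a thiolase. At T6 they stood at -0.24 and -0.09 in KO against WT (limma adjusted p = 0.667 and 0.781). On activation Acat1 changed by -0.37 in KO (adjusted p = 0.034) and by -0.30 in WT, where it was not called (0.067). Of the 14 enzymes that use farnesyl or geranylgeranyl diphosphate, 12 were tested and 0 were called by limma for genotype at T0 or T6, with 2 and 1 at an unadjusted p under 0.05. Their median at T6 was -0.07, with Nus1, a dolichol synthesis subunit, at -0.23, Ggps1, which makes geranylgeranyl diphosphate, at -0.32, Fnta, a farnesyltransferase subunit, at 0.15 and Fdft1, squalene synthase, at -0.27. In WT activation 1 of the 12 rose, Nus1 by 0.49 (adjusted p = 0.0050), and 1 fell, Fntb by 0.86 (adjusted p = 0.014).

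All 10 tested genes from squalene to cholesterol were negative at T6 with a median of -0.72, against -0.68 for the 5 enzymes and 0.04 for all genes tested. Of these 10, 2 were called lower: Sc5d, a sterol desaturase, at -1.59 (limma adjusted p = 0.0040) and Cyp51, lanosterol demethylase, at -1.75 (0.0064). In WT activation 6 of the 10 rose and 1 fell, with Cyp51 at 2.10, Hsd17b7, a ketoreductase, at 0.96, Msmo1, a methyl sterol oxidase, at 1.08 and Sqle, squalene epoxidase, at 1.32. Among 7 tested genes of SREBP control, 1 was called lower at T6, Insig1, the ER anchor of SCAP, at -1.15 (adjusted p = 0.0040). Srebf2, which encodes SREBP2, stood at -0.81 (adjusted p = 0.069) and Srebf1 at -0.40 (0.192). At T0, Insig1 was the 1 gene of this list called lower, at -0.78 (limma adjusted p = 0.044), against 0.038% of all genes tested. All 10 genes from squalene to cholesterol were negative at T0 too, against 50%, with a median of -0.36 and 0 called. Of those 10, 5 had an unadjusted limma p under 0.05, against 9.77%. These comparisons share their arrays with those of the 5 enzymes.

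**Figure D5:**
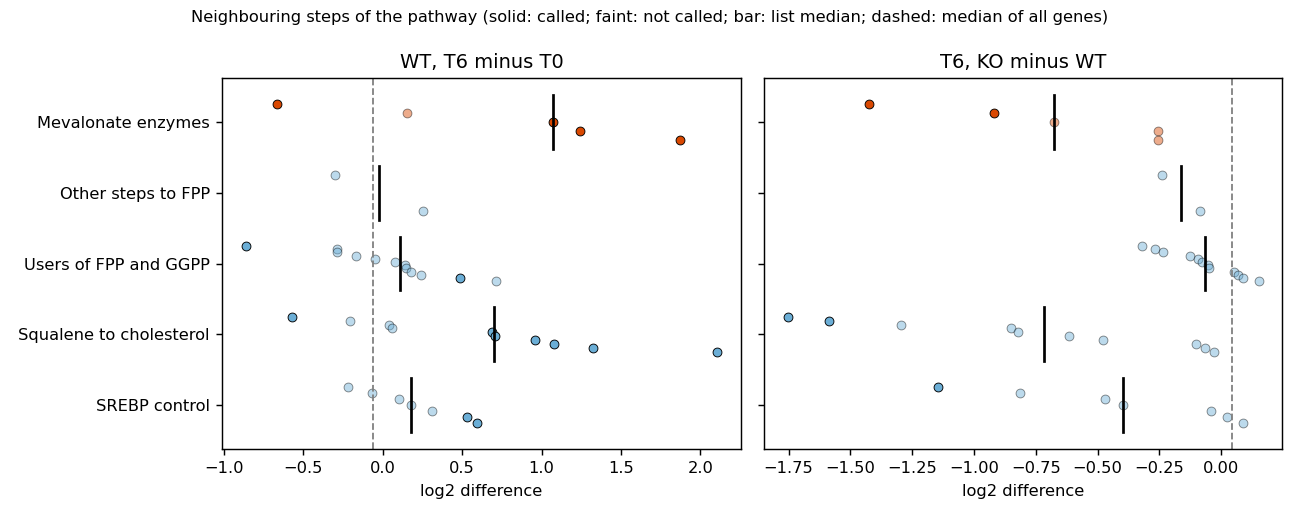
Log2 differences (horizontal axes) of the 5 mevalonate enzymes and of 4 neighbouring gene lists on WT activation (left) and for KO against WT at T6 (right); each point is a gene, solid where called and faint where not, black bars are list medians and dashed lines the median of all genes tested. At T6 the enzymes have a median of -0.68, the genes from squalene to cholesterol -0.72 and the users of farnesyl (FPP) and geranylgeranyl (GGPP) diphosphate -0.07.

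Genes whose profile over the 12 arrays was nearest to each enzyme were found by the root mean square difference of log2 values after centring each gene on its own mean. For Idi1 the nearest were Sqle (0.28) and Cyp51 (0.29), for Hmgcs1 they were Msmo1 (0.19) and Srebf2 (0.19), and for Fdps they were Hsd17b7 (0.21) and Msmo1 (0.23). Mvd lay nearest to Slc9a7 (0.14) and Sfxn2 (0.14), and Mvk to Tbc1d7 (0.17) and Plxna2 (0.18). Among the 5 enzymes the closest pair was Hmgcs1 and Fdps, 0.31 apart, followed by Idi1 and Fdps at 0.32 and Hmgcs1 and Idi1 at 0.45. Mvd was 0.53 from Mvk, 0.82 from Hmgcs1, 0.95 from Fdps and 1.151 from Idi1. The centred profiles themselves had a root mean square of 0.28 for Mvk, 0.42 for Mvd, 0.54 for Hmgcs1, 0.62 for Fdps and 0.88 for Idi1. The distance between Mvd and Mvk thus exceeded the size of either profile, and distances of different genes are not on one scale. The mean profile of the 5 lay nearest to Ttc14 (0.15), Slc25a27 (0.15), Nop58 (0.16), Mir1949 (0.16), Rps15a-ps6 (0.16) and Ankrd28 (0.17). All distances are over 12 arrays in 4 groups, with no test.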

How the data were processed

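Linear signal intensities per probe set were deposited by the authors, made with GCOS per the submitters' processing notes; its version, background correction and probe summary are not given in the sources used here. The deposited intensity averaged 500.003 between percentiles 2 and 98 on every array, so arrays had been scaled alike. For arrays, their number limits the precision.

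Probe sets were named from the platform annotation (34945 with 1 symbol, 932 with several, 9160 with none; 34741 matched the gene table of GRCm38.p6). Values were taken as log2(signal + 16). Each gene was represented by the probe set of highest mean log2, and was kept when above percentile 40 on at least 3 arrays. limma 3.58.1 in R 4.3.3 (lmFit, eBayes, two-sided) was fitted to 4 group means over 12 arrays, and errors of log2 differences are its standard errors. The fit was tested on simulated data. The 5 genes, the lists and the tests were chosen with earlier results of these data known. Named beside them were up to 4 genes of each list by smallest p and the nearest profiles. Cells of 3 mice per genotype served both times, while the fit counted the 12 arrays as independent. Its p-values rest on the spread between mice and preparations within the groups, and not on the spread of changes within mice. The numbers were not taken as pairs. The alternatives were 26 in all: other constants, filters, scalings, probe set rules, fits, covariates and arrays left out.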

Additional observations from a re-analysis of the deposited data

How the results depend on the processing

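Over 26 alternatives, 692 of 780 values of the 5 genes kept their direction and their side of the threshold, 74 lost a call, 2 gained one and 12 changed sign, all 12 for Mvk or Mvd in comparisons where they were not called. The 2 genes called at T6 (KO against WT) became 1 with signals floored at 1, with quantile normalization or with a replicate block (Idi1 lost). They became 0 without a filter, with probe sets averaged per gene, in a separate fit or with either covariate (0 to 1 with single arrays left out). The 2 called in the average over times became 1 without a filter and 0 with either covariate (1 to 3 with single arrays left out). The 4 called on activation became 0 with the composition covariate in both genotypes, and in KO also 2 with the mean of probe sets, 1 in a separate fit and 0 with the RNA quality covariate (2 to 4 with single arrays left out). With the replicate block the count in the average stayed at 2, the counts on activation at 4 and at T0 and for the difference of changes at 0. That block joined equal replicate numbers across the genotypes, so it was not a block for mice and did not account for their sharing between times. The covariates moved with time or genotype and took a degree of freedom; otherwise the cause was not tested. Mvk on KO activation turned to -0.053 with the mean of probe sets, -0.082 with the RNA quality covariate, -0.07 without KO T0 replicate 2 and KO T6 replicate 2, and between -0.19 and 0.24 with single arrays left out. Mvk at T0 ranged from -0.34 to 0.086 with single arrays left out, and its difference of changes from -0.34 to 0.084. For Mvd that difference was 0.066 with the mean of probe sets, 0.058 with the RNA quality covariate and between -0.30 and 0.10 with single arrays left out. Deviations from the group means of same-numbered T0 and T6 arrays correlated across genes at r of 0.18, 0.46 and 0.38 in KO and 0.23, -0.06 and -0.11 in WT. Differently numbered arrays stood between -0.40 and 0.14 in KO and between -0.16 and 0.23 in WT. Every same-numbered pair was thus above every other pair in KO, but not in WT. The sources used here do not tie the numbers to mice. They were therefore not taken as pairs, although the mice were shared between times.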
